A study of Mus musculus with 10 samples.

Results

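Brain endothelial genes were followed as a list of 35 genes that mark or serve the cells lining cerebral vessels, chosen by symbol. One of the 35, Ly6a, had no probe under that name. The other 34 had 55 probes, and 29 genes had at least 1 probe detected in at least 4 of the 9 mice. These 29 genes stood among 11376 named genes with a detected probe in the whole data set.

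The arrays measured RNA of the subventricular zone (SVZ), the neurogenic layer beside the lateral ventricle, captured by laser microdissection. The comparison was between 4 Tlx overexpressing mice (2995, 3155, 3157 and 3163) and 5 wild type mice (c1, c2, 2989, 2996 and 3164), all BL6 and 8 weeks old. Tlx is the nuclear receptor encoded by Nr2e1. Every mouse of both genotypes had a unilateral ischaemic stroke, so no mouse without a stroke was set beside them, and the labels give neither the promoter behind the overexpression, nor the hemisphere captured, nor the time after the stroke.

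Brain endothelial cells form a barrier: their junction proteins seal the space between cells, and transporters such as Mfsd2a and the Slco carriers decide what passes. Their identity is held by transcription factors of the ETS and SOX families, and their growth and stability by signalling through the VEGF receptors, the angiopoietin receptor Tek and its partner Tie1. In the SVZ, vessels lie close to neural stem cells, and after ischaemia they can leak, regress or sprout.

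Between 20068 and 20590 probes were detected on each array, and 20401 probes were tested. Nr2e1 itself, read by 1 probe, had a mean log2 signal of 5.43 with Tlx overexpression (SD 0.14, n = 4), against 5.01 in the wild type (SD 0.19, n = 5), with no overlap between the groups (exact two-sided permutation p = 0.00794, the smallest that 4 against 5 mice allow) and an adjusted p of 0.084 in the limma fit over all probes. The mouse numbers fall in 3 ranges whose meaning the labels do not give: 2995, 2989 and 2996, then 3155, 3157, 3163 and 3164, and then c1 and c2, both wild type. The first holds a single Tlx overexpressing mouse, 2995, and the second a single wild type mouse, 3164. Every difference given below within a number range rests on that mouse. For c1 the mean of 2 arrays was taken, and over the 29 endothelial genes these arrays differed, in either direction, by a median of 0.06 on the log2 scale and by up to 0.49, against a median of 0.20 between pairs of wild type mice. Over all probes the first and second c1 arrays had a Spearman's rho of 0.922, while the second reached 0.938 with another mouse. Choroid plexus genes, a list of 16 with 13 measured, had mean centred levels from -0.999 to 0.64 in single mice and are given below beside the endothelial results. The precision of all values below is limited by the number of animals.

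Endothelial RNA was present in the captured tissue of both genotypes, and 1 gene differed between them past the threshold. Signals are log2 values after background correction and quantile normalization, each gene by its brightest detected probe, and a difference is the mean of Tlx overexpressing mice minus the mean of wild type mice. At an adjusted p under 0.05 (limma, Benjamini-Hochberg over all 20401 probes), 1 of the 29 genes was called: Vwf, the clotting protein stored in endothelial granules, was higher in Tlx overexpressing mice. Of all named genes, 1.13% passed this threshold, 0.624% higher and 0.501% lower. At an unadjusted p under 0.05, 2 members were higher (Vwf and Mfsd2a) and 5 lower (Slco1c1, Podxl, Tie1, Eng and Emcn), beside 8.5% and 9.71% of all named genes. The groups did not overlap in Vwf, higher, and in Tie1, lower, beside 3.64% and 3.16% of all named genes.

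The differences of 23 of the 29 genes were below 0, with a median of -0.10, while 49.7% of all named genes were below 0, with a median of 0.00. The direction of the list did not hold in every fit. With the range of mouse numbers as a block 14 of the 29 were below 0 (median 0.01). Once each mouse's choroid plexus level was added instead, 12 were (median 0.05). That level differed by -0.74 between the genotypes, so this fit cannot tell genotype and choroid plexus level fully apart. The SE of the members ran from 0.12 to 0.24 in it, against 0.08 to 0.18 with genotype alone. In the other alternative fits the median lay between -0.14 and -0.057. No member was called lower, and the SD between mice of 1 genotype had a median of 0.16 over the members. The 95% interval of the difference lay within 0.5 of 0 on either side for 22 genes, excluded 0 for 7 and reached a 1.5-fold difference for 4. In tissue of mixed cells, fewer endothelial cells and less RNA per endothelial cell cannot be told apart.

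**Figure D1:**
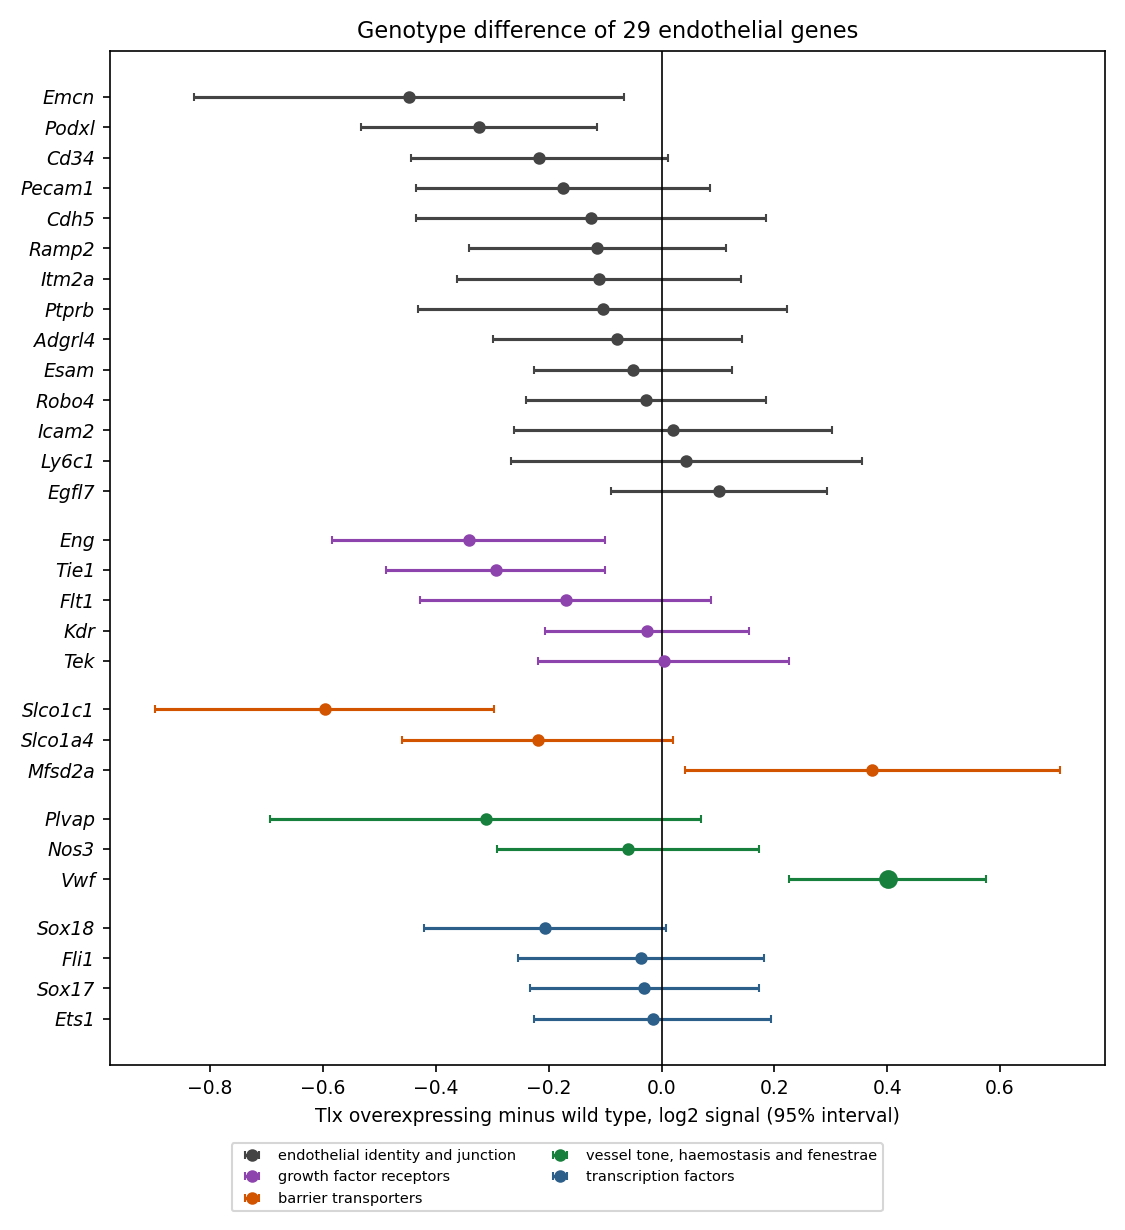
Difference in log2 signal between 4 Tlx overexpressing and 5 wild type mice for 29 endothelial genes, grouped by role, with the 95% interval of the limma fit as bars. The larger point is Vwf, the 1 gene past the adjusted threshold. Left of 0 lie 23 points, and 22 intervals stay within 0.5 of 0. With the number range or the choroid plexus level in the fit, 14 and 12 genes are below 0. The choroid plexus level itself differed by -0.74 between the genotypes.

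Genes of endothelial identity and junctions were the largest group, with 14 measured, 11 of them below 0 and a median difference of -0.11. Pecam1, the adhesion protein CD31 that marks endothelium, had log2 signals of 6.54, 6.34, 6.41 and 6.39 in Tlx overexpressing mice 2995, 3155, 3157 and 3163, against 7.03, 6.58, 6.53, 6.47 and 6.36 in wild type mice c1, c2, 2989, 2996 and 3164, the order kept for all genes below. Mouse c1 stood above the other mice, which overlapped. The difference was -0.17 (SE 0.12, adjusted p = 0.47), and a second probe gave -0.29 (adjusted p = 0.28). Cdh5, the VE-cadherin of adherens junctions, had 5.46, 4.99, 5.10 and 5.08 in Tlx overexpressing mice, against 5.56, 5.05, 5.16, 5.62 and 5.02 in wild type mice. In each genotype the Cdh5 values were split, with 2995 high among the Tlx overexpressing mice and c1 and 2996 high among the wild type mice, and the difference was -0.13 (SE 0.14, adjusted p = 0.69). Its second probe gave -0.29 (adjusted p = 0.23).

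Podxl and Emcn, both sialomucins of the luminal endothelial surface, had the lowest differences of this group. Podxl had 6.21, 5.90, 6.02 and 6.05 in Tlx overexpressing mice, against 6.53, 6.46, 6.18, 6.24 and 6.43 in wild type mice. The groups touched through 2995, which lay above wild type mouse 2989, and the difference was -0.32 (SE 0.10, adjusted p = 0.11). Emcn had 8.56, 7.84, 8.24 and 8.31 in Tlx overexpressing mice, against 9.17, 8.75, 8.24, 8.48 and 8.79 in wild type mice. Mouse 3155 was lowest and c1 highest, with overlap between them, and the difference was -0.45 (SE 0.18, adjusted p = 0.21). Within the number range of 2995, 2989 and 2996 the Emcn difference was 0.20, and within that of 3155, 3157, 3163 and 3164 it was -0.66. Mouse 2995 was the only Tlx overexpressing mouse of the first range and 3164 the only wild type mouse of the second. The opposite signs can therefore rest on a single mouse. Podxl was close to 0 in the first of these ranges and at -0.44 in the second.

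Egfl7, a secreted protein that endothelial cells deposit around themselves, had 9.38, 9.66, 9.40 and 9.60 in Tlx overexpressing mice, against 9.51, 9.35, 9.33, 9.34 and 9.50 in wild type mice. The groups overlapped and the difference was 0.10 (SE 0.09, adjusted p = 0.58), but another detected Egfl7 probe had the other sign (-0.13, adjusted p = 0.45). The remaining 9 genes of this group had differences between -0.22 and 0.04, with adjusted p-values of 0.31 or more. Cd34, a sialomucin of progenitors and capillaries, was at -0.22 (adjusted p = 0.31), and its signal was 4.54 ± 0.08 in Tlx overexpressing mice (SD, n = 4) and 4.75 ± 0.21 in wild type mice (SD, n = 5). Ramp2, the adrenomedullin receptor's partner, was at -0.11, the membrane protein Itm2a at -0.11, and the phosphatase Ptprb, which dephosphorylates Tek and VE-cadherin, at -0.10. Adgrl4, listed under its older name Eltd1, was at -0.08, the junction adhesion protein Esam at -0.05 and the guidance receptor Robo4 at -0.03. Icam2 and Ly6c1 were the 2 with differences above 0, at 0.02 and 0.04.

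The growth factor receptors had 5 measured genes, 4 of them below 0, with a median difference of -0.17. Tie1, the orphan receptor that pairs with Tek, had 4.81, 4.62, 4.77 and 4.86 in Tlx overexpressing mice, against 5.21, 4.96, 5.06, 4.90 and 5.18 in wild type mice. Every Tlx overexpressing mouse lay below every wild type mouse. The difference was -0.29 (SE 0.09, adjusted p = 0.12), and exact permutation of the 9 mice gave a two-sided p = 0.0159. That p is not adjusted for the number of genes and follows largely from the separation, where 0.00794 is the smallest value possible. Such a separation, lower, was found in 3.16% of all named genes. The mean Tie1 signal, 4.93, was close to background. Its difference was -0.17 and -0.42 within the number ranges that hold both genotypes. Eng, the endoglin co-receptor for TGF-beta family ligands, had 6.10, 5.81, 5.69 and 5.79 in Tlx overexpressing mice, against 6.39, 6.25, 6.20, 6.21 and 5.89 in wild type mice. The groups were apart except that 2995 lay above wild type mouse 3164, and the difference was -0.34 (SE 0.11, adjusted p = 0.14). Within the number ranges Eng was at -0.11 and -0.12.

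Neither VEGF receptor was called. Flt1, the VEGF receptor that can act as a decoy, had 8.86, 8.22, 8.50 and 8.40 in Tlx overexpressing mice, against 8.78, 8.48, 8.73, 8.74 and 8.60 in wild type mice, with 2995 the highest of all and 3155 the lowest of all. Its difference was -0.17 (SE 0.12, adjusted p = 0.48, 95% interval -0.43 to 0.09). Kdr, the main signalling VEGF receptor of endothelium, had 4.41, 4.45, 4.49 and 4.52 in Tlx overexpressing mice, against 4.56, 4.58, 4.29, 4.58 and 4.45 in wild type mice. This probe was detected in only 5 of the 9 mice, close to background, and the difference was -0.03 (SE 0.08, adjusted p = 0.90). Tek, the angiopoietin receptor, averaged 6.52 ± 0.23 in Tlx overexpressing mice (SD, n = 4) and 6.52 ± 0.07 in wild type mice (SD, n = 5), and the 95% interval of its difference ran from -0.22 to 0.23.

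**Figure D2:**
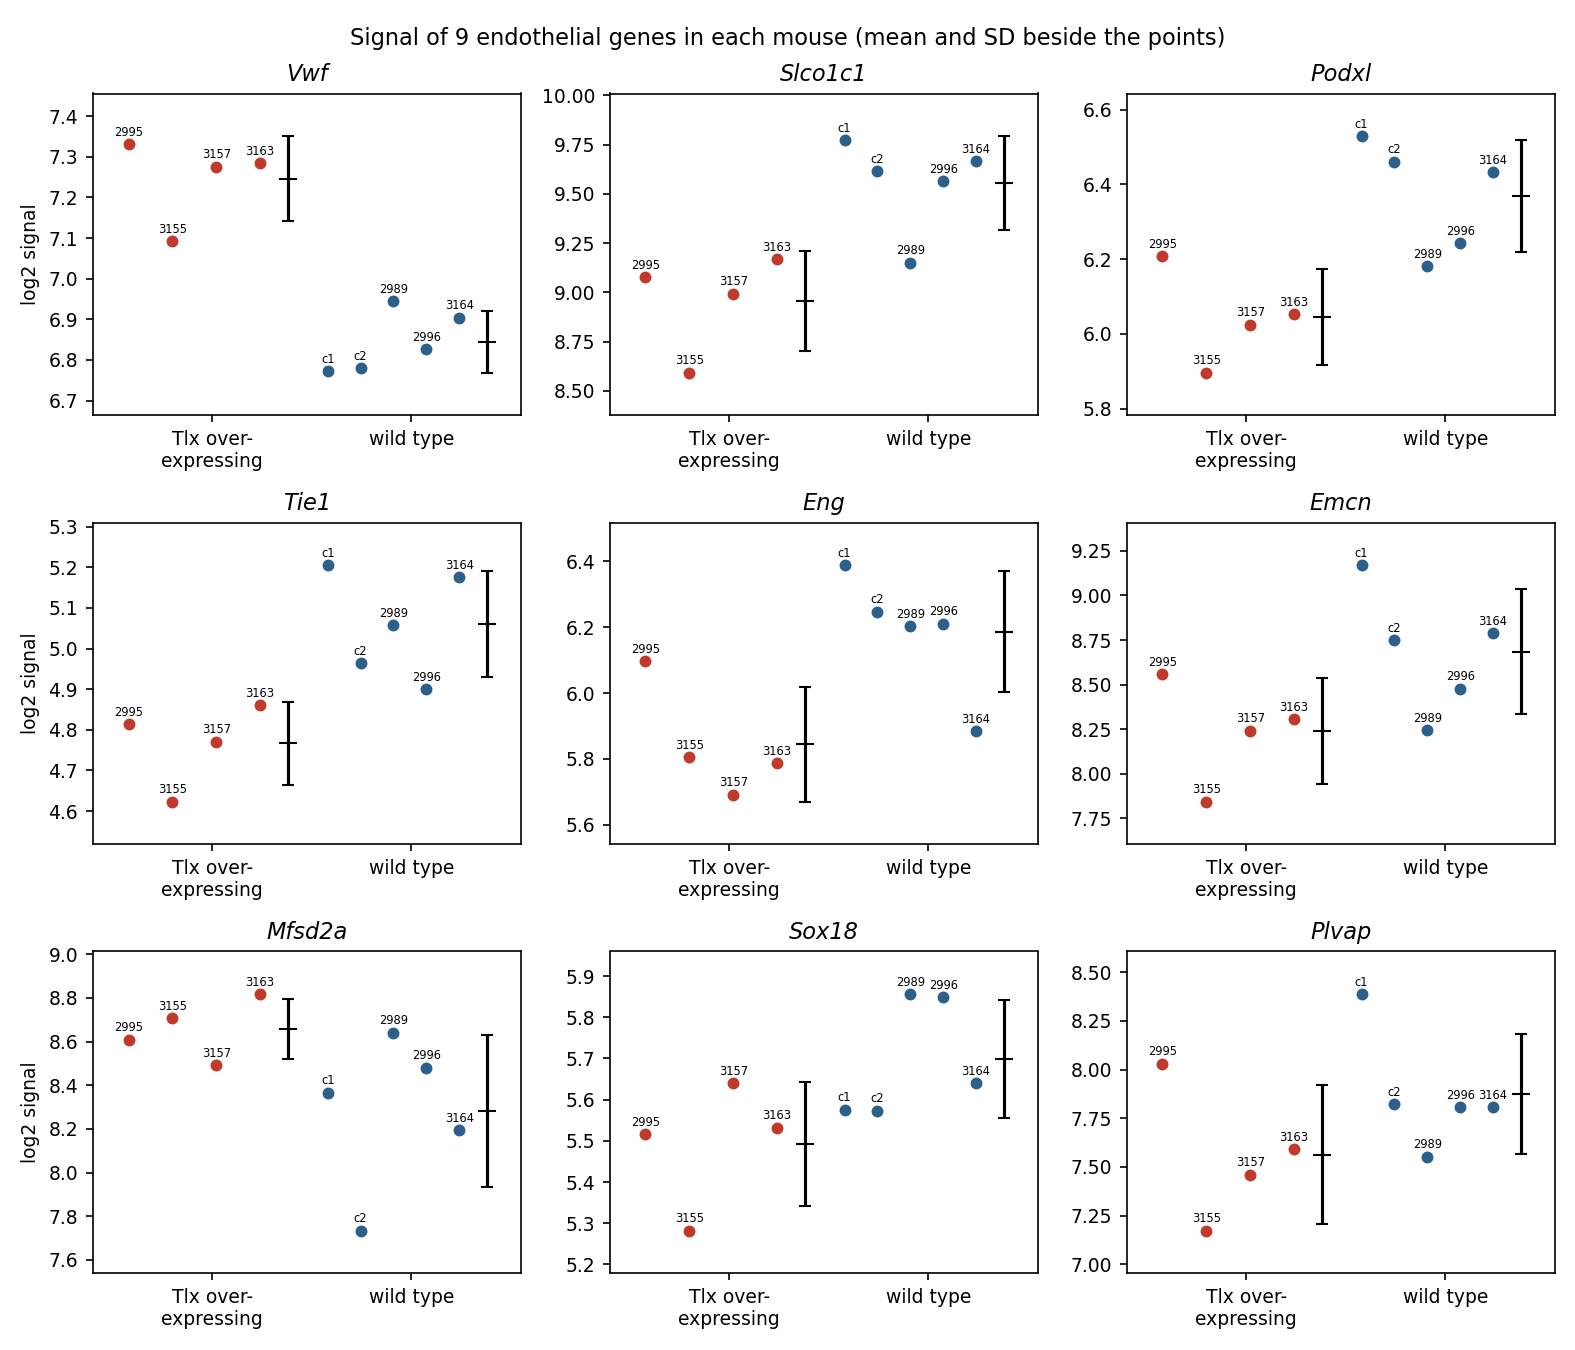
Log2 signal of 9 endothelial genes in each mouse, Tlx overexpressing on the left and wild type on the right, with the mean and SD (n = 4 and n = 5) beside the points; each panel has its own axis. These are the 8 genes with the smallest unadjusted p and Plvap. The genotypes are fully apart in Vwf and Tie1, and mouse 2995 lies nearest to the wild type mice, or among them, in Podxl, Eng, Emcn and Plvap.

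Of the transporters of the blood-brain barrier, 3 were measured, and they did not share a direction. Slco1c1 carries thyroxine into the brain and is made by the choroid plexus epithelium as well as by endothelium. It had 9.08, 8.59, 8.99 and 9.17 in Tlx overexpressing mice, against 9.77, 9.62, 9.15, 9.57 and 9.67 in wild type mice. The Tlx overexpressing mice were all below 4 of the wild type mice, and only wild type mouse 2989 lay among them. The difference was -0.60 (SE 0.14), a 1.51-fold lower signal, with an adjusted p of 0.062 that missed the threshold. The exact two-sided permutation p was 0.0238, not adjusted for the number of genes. Slco1c1 passed the threshold without Tlx overexpressing mouse 2995 (adjusted p = 0.044) and without wild type mouse 2989 (adjusted p = 0.028). The other fits that leave out 1 mouse did not call it, with adjusted p-values of 0.089 to 0.19. Of 20 alternative settings, 3 called Slco1c1. Its difference was -0.28 and -0.75 within the number ranges. Slco1a4, a carrier of organic anions, had 5.64, 5.69, 5.65 and 5.75 in Tlx overexpressing mice, against 5.95, 6.19, 5.71, 5.63 and 6.03 in wild type mice. The Tlx overexpressing mice were tightly grouped and overlapped with 2989 and 2996, and the difference was -0.22 (SE 0.11, adjusted p = 0.33).

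Mfsd2a, the lysolipid transporter that restrains vesicle traffic across brain endothelium, stood on the other side. It had 8.61, 8.71, 8.49 and 8.82 in Tlx overexpressing mice, against 8.37, 7.73, 8.64, 8.48 and 8.19 in wild type mice. Wild type mouse c2 was far below the others, and the groups overlapped through 2989. The difference was 0.37 (SE 0.15, adjusted p = 0.23), and without c2 it was 0.24. Within the number ranges it was 0.05 and 0.48. The efflux pumps Abcb1a and Abcg2, which expel drugs from brain endothelium, had 1 probe each that was detected in 0 of 9 mice, so their levels were not measured.

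The RefSeq promoters of the 3 measured transporters are shown because this group held Slco1c1, with the lowest difference of all members, and Mfsd2a, with one of the highest; Slco1a4, between them, completes the group. Each run is the 250 bases before the annotated start, read 5′ to 3′ towards the gene on GRCm38.p6: chr6:141524104-141524353 on the plus strand for Slco1c1, chr6:141856221-141856470 on the minus strand for Slco1a4 and chr4:122961189-122961438 on the minus strand for Mfsd2a. Capitals mark matches to the searched ETS and SOX cores.
Slco1c1: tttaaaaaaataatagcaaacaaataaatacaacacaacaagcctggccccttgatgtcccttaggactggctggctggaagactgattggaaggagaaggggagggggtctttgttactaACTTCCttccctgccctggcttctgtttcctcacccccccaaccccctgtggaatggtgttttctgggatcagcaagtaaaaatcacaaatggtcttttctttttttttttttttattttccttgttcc
Slco1a4: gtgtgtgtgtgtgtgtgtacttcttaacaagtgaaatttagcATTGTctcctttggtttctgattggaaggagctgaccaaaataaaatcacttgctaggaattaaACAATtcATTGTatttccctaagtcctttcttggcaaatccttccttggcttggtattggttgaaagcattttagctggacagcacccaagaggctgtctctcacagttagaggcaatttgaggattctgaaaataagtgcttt
Mfsd2a: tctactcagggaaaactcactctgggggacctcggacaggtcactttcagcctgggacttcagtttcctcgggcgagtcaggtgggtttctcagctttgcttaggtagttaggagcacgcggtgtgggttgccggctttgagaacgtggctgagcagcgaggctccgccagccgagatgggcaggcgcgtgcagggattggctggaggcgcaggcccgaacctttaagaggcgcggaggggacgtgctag
The ETS family's core was searched as CCGGAA and, in a second form that can overlap the first, as GGAAGT. For the SOX family the letters ACAAT were searched, and for GATA factors the letters GATAAG. The GC box was written as GGGCGG and the TATA box as the letters TATAAA. Both strands were read for each. Slco1c1 held GGAAGT on the opposite strand, 129 bases before the start. Slco1a4 held ACAAT at 3 places, 208, 144 and 137 bases before the start, and Mfsd2a held none of the searched ETS or SOX letters. Shorter or other forms of these cores were not searched. The Mfsd2a run was GC-rich (61.6%, with 17 CG dinucleotides), while those of Slco1c1 (42.8%) and Slco1a4 (39.2%) had 0 CG dinucleotides, beside a median GC of 52.4% over all promoters in the table.

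Of the 34 endothelial genes with a probe, 20 had a promoter in the table, with 27 windows of 300 bases among 32851 in all. GGAAGT was present in 40.7% of the endothelial windows and 23.8% of all windows, and GATAAG in 22.2% and 7.44%. TATAAA stood in 22.2% of endothelial and 13.6% of all windows. CCGGAA (7.41% and 14.9%), ACAAT (29.6% and 31.0%) and GGGCGG (25.9% and 35.7%) were no more frequent in endothelial windows. These are matches of letters in windows that can belong to the same gene, and a match is not a bound site.

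Vwf was the member past the threshold, in the group of genes for vessel tone, haemostasis and fenestrae. It had 7.33, 7.09, 7.28 and 7.28 in Tlx overexpressing mice, against 6.77, 6.78, 6.94, 6.83 and 6.90 in wild type mice. All 4 Tlx overexpressing mice lay above all 5 wild type mice. The difference was 0.40 (SE 0.08, 95% interval 0.23 to 0.58), a 1.32-fold higher signal, with an adjusted p of 0.038 in limma. The exact two-sided permutation p of 0.00794, the smallest possible, is not adjusted and follows largely from the separation. Within the number ranges the Vwf difference was 0.45 and 0.31, and with the range as a block it was 0.38 (adjusted p = 0.18). Of the 9 fits that leave out 1 mouse, 3 still called Vwf, with differences between 0.37 and 0.45 and adjusted p-values between 0.041 and 0.16: the call was lost without 3157, 3163, c1, c2, 2996 or 3164. A second Vwf probe was detected in 0 of 9 mice, so the call rests on 1 probe.

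Plvap, the diaphragm protein of fenestrated vessels such as the capillaries of the choroid plexus, had 8.03, 7.17, 7.46 and 7.59 in Tlx overexpressing mice, against 8.39, 7.82, 7.55, 7.81 and 7.81 in wild type mice. Mice 2995 and c1 were the highest of their genotypes and 3155 the lowest of all. The difference was -0.31 (SE 0.18, adjusted p = 0.38), and it was 0.35 and -0.40 within the number ranges. Nos3, the endothelial nitric oxide synthase that relaxes vessels, had 3 detected probes, all below 0. The brightest gave -0.06 (adjusted p = 0.81) and the others -0.15 (adjusted p = 0.49) and -0.22 (adjusted p = 0.18). In the last of them every Tlx overexpressing mouse, at 6.67 to 6.82, lay below every wild type mouse, at 6.83 to 7.12, as did 3.04% of all probes.

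All 4 measured endothelial transcription factors were below 0, with a median of -0.03 and none called. Sox18, a SOX factor of vascular and lymphatic endothelium, had 5.52, 5.28, 5.64 and 5.53 in Tlx overexpressing mice, against 5.58, 5.57, 5.86, 5.85 and 5.64 in wild type mice. The groups overlapped through 3157 and the difference was -0.21 (SE 0.10, adjusted p = 0.30). Its relative Sox17, a factor of arterial endothelium, had 4.69, 4.75, 4.49 and 4.56 in Tlx overexpressing mice, against 4.84, 4.63, 4.62, 4.46 and 4.72 in wild type mice, near background and fully mixed. The Sox17 difference was -0.03 (SE 0.09, adjusted p = 0.90). The ETS factors Fli1, also made by blood and immune cells, and Ets1 were at -0.04 and -0.02, with 95% intervals of -0.25 to 0.18 and -0.23 to 0.19. Erg, the ETS factor most particular to endothelium, had 2 probes detected in 0 of 9 mice, as had the probes of Tm4sf1 and Clec14a, both endothelial surface proteins.

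The 9 members with a mean log2 signal under 6, close to the background, were all below 0, and of the 20 members at 6 or more, 14 were below 0. The offset of 16 added before the logarithm compresses differences of dim probes.

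**Figure D3:**
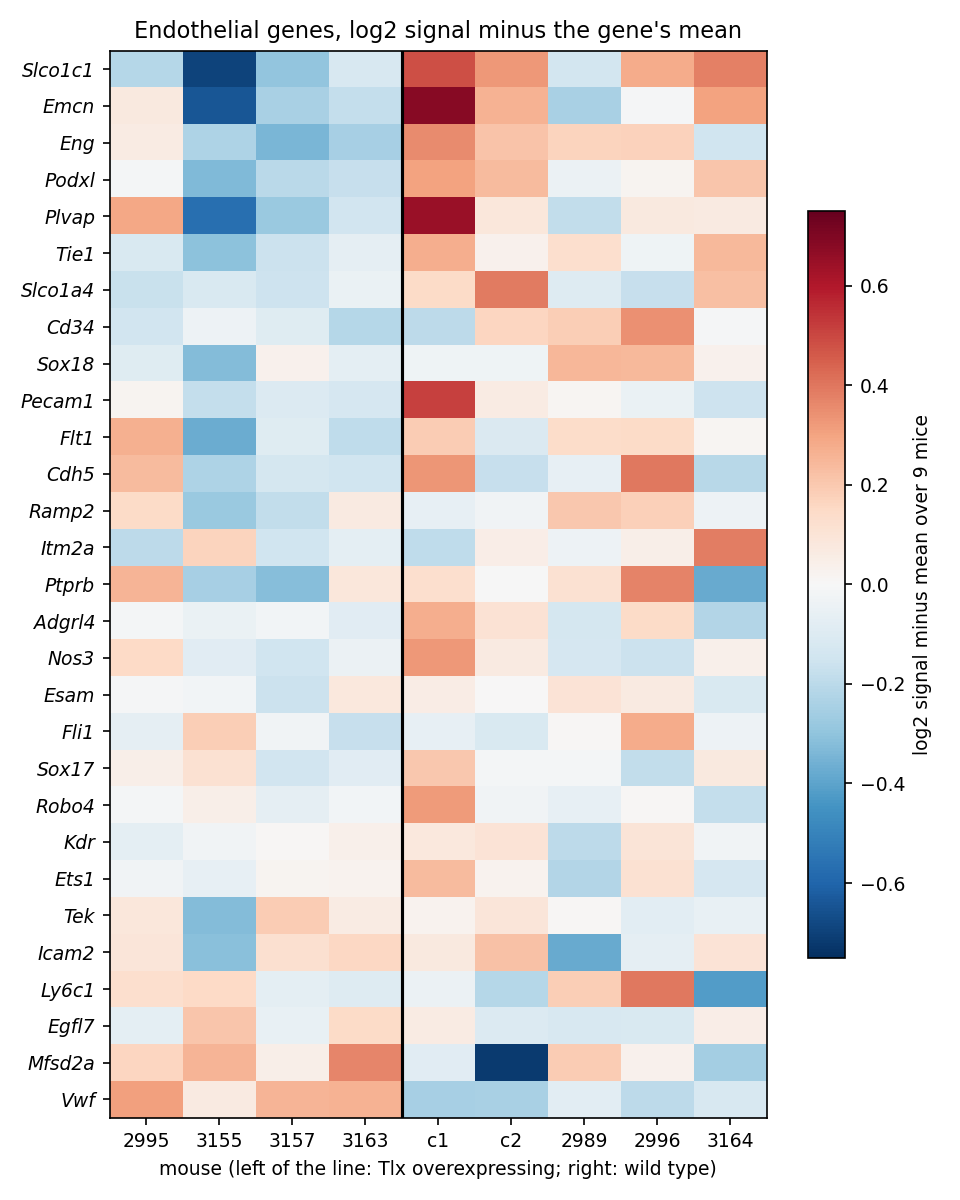
Log2 signal of 29 endothelial genes (rows, ordered by their genotype difference) minus each gene's mean over 9 mice, for Tlx overexpressing mice left of the line and wild type mice right of it. Mouse 3155 holds the lowest value of 11 genes and mouse c1 the highest of 12.

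Mice c1 and 3155 held many of the extreme values. Mouse c1 had the highest value of 12 of the 29 genes and mouse 3155 the lowest of 11. The mean centred level over the 29 genes was 0.04, -0.15, -0.10 and -0.04 in Tlx overexpressing mice, against 0.17, 0.02, -0.02, 0.08 and -0.01 in wild type mice. Apart from 2995, the Tlx overexpressing mice were below all wild type mice, and 2995 lay among them. Without c1, 19 of the 29 genes were below 0 (median -0.06), and without both c1 and c2, 18 were (median -0.10). Within mice 2995, 2989 and 2996, 14 of 29 genes were below 0 (median 0.01), and within 3155, 3157, 3163 and 3164, 15 were (median -0.09).

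Choroid plexus genes moved with the endothelial list. All 13 measured genes of that list, which holds the choroid plexus transport and secretory genes, were below 0 in Tlx overexpressing mice. All 13 had an unadjusted p under 0.05, beside 9.71% of all named genes, lower. In 3 of them the groups did not overlap, beside 3.16% of all named genes, lower. Calml4 and Steap1 passed the adjusted threshold, beside 0.501% of all named genes, lower. They did so in 15 and 9 of 20 alternative settings too. The Calml4 call was lost without 3157, and that of Steap1 without 3155, 3157, 3163, c1, 2996 or 3164. The mean centred choroid plexus level was 0.16, -0.999, -0.49 and -0.32 in Tlx overexpressing mice, against 0.64, 0.39, 0.06, 0.29 and 0.27 in wild type mice. Mice 3155 and c1, the lowest and highest for choroid plexus genes, were also the lowest and highest for endothelial genes. The pattern was not particular to these lists. Mice 3155 and c1 were lowest and highest for the barrier genes (-0.07 and 0.08) described below. They were so too for the angiogenic genes (-0.17 and 0.21) and the adhesion and activation genes (-0.23 and 0.26). With that level added to the fit as a covariate, where 12 of 29 endothelial genes were below 0, 48.6% of all named genes were. Emcn then stood at 0.15 and Plvap at 0.34, both with the other sign, and Slco1c1 at -0.19 (adjusted p = 0.91). Vwf was at 0.47, no smaller than without the covariate, but its adjusted p was 0.53. The choroid plexus level itself differed by -0.74 between the genotypes, so in 9 mice this fit cannot tell genotype and choroid plexus level fully apart.

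**Figure D4:**
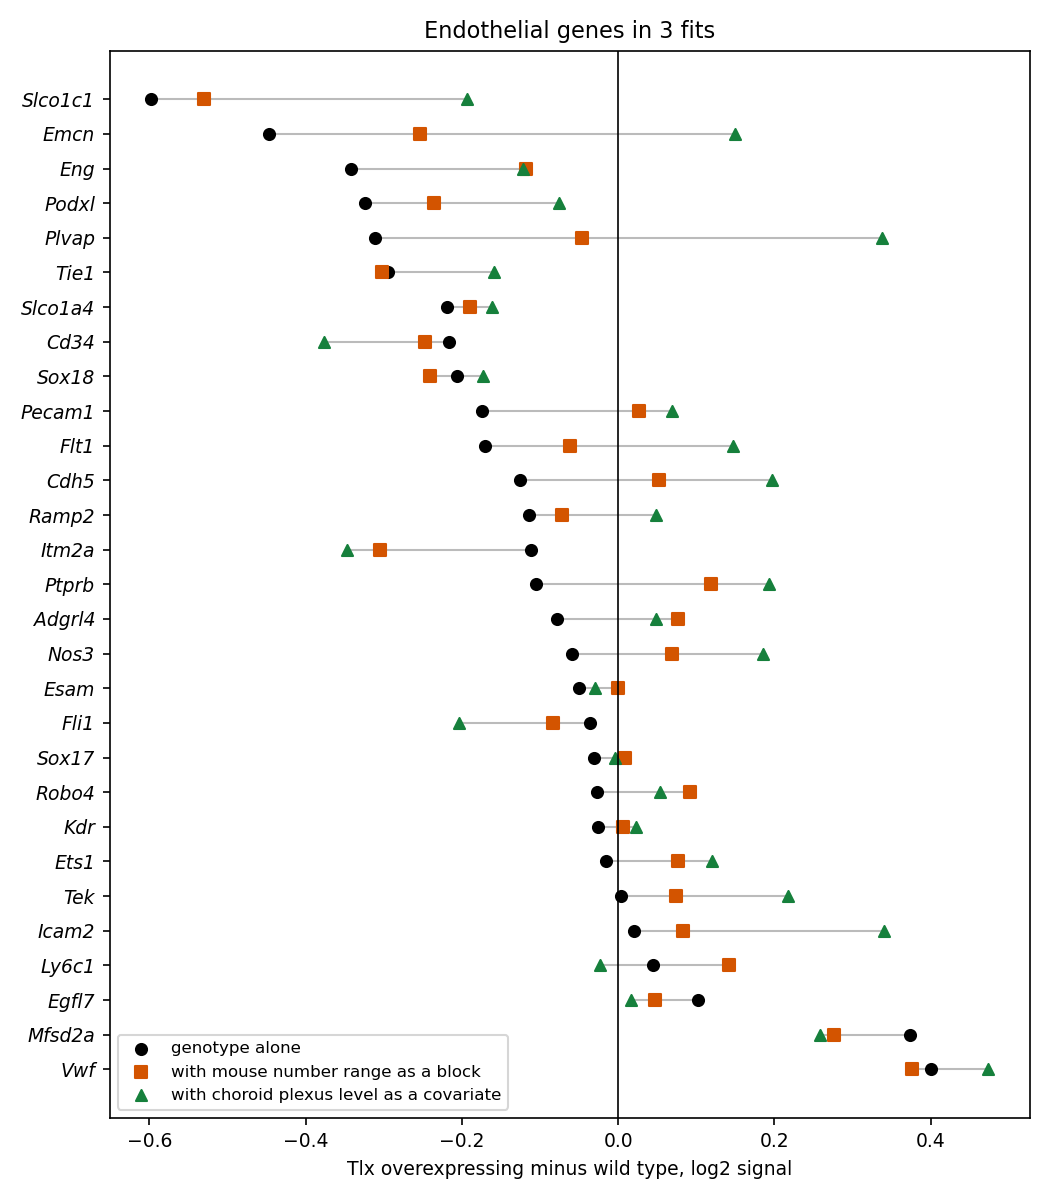
Genotype difference in log2 signal of 29 endothelial genes in 3 limma fits: genotype alone, genotype plus number range, and genotype plus choroid plexus level. The number of genes below 0 is 23, 14 and 12 in these fits; Vwf and Mfsd2a stay above 0, and Emcn and Plvap lie above 0 with the covariate.

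Genes around the endothelial list were described with lists of related function. Of 30 genes for barrier junctions, nutrient transporters and Wnt signalling, 18 were measured, 9 above and 9 below 0 with a median of -0.02, and none was called. At an unadjusted p under 0.05, 2 were higher and 2 lower, beside 8.5% and 9.71% of all named genes. The smallest p-values were those of the efflux pump Abcc4 at -0.61 (adjusted p = 0.051), the Wnt target Apcdd1 at 0.51 (adjusted p = 0.062) and the glycoprotein Bsg at -0.40 (adjusted p = 0.19). Abcc4 is also made by choroid plexus epithelium. The junction protein Cldn5, most abundant in brain endothelium, was at 0.18 (adjusted p = 0.27), and the glucose transporter Slc2a1 at -0.19 (adjusted p = 0.36); both were chosen after their values were seen.

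Of 25 angiogenic ligands, receptors and tip cell genes, 16 were measured, 13 below 0 with a median of -0.24, and Eng belongs to this list too. At an unadjusted p under 0.05, 1 was higher and 8 lower, beside 8.5% and 9.71% of all named genes. The groups did not overlap in 1 gene, higher, and in 2 genes, lower, beside 3.64% and 3.16% of all named genes. Esm1, secreted by sprouting endothelial tip cells, fell in Tlx overexpressing mice, at 5.09 ± 0.28 (SD, n = 4), against 5.76 ± 0.14 in wild type mice (SD, n = 5). Its difference was -0.67 (SE 0.13, adjusted p = 0.031), the groups did not overlap, and it was called in 13 of 20 alternative settings. Esm1 was the 1 gene of the 16 called, beside 0.501% of all named genes, lower. Without 3157, 3163 or c1 it was between -0.63 and -0.72, with adjusted p-values of 0.073 to 0.11. The Esm1 call was also lost without both c1 and c2 (adjusted p = 0.099), with no filter on detection (adjusted p = 0.11), with the number range as a block (-0.51, adjusted p = 0.19) and with the choroid plexus covariate (-0.29, adjusted p = 0.85). With an offset of 50 the call held, at a difference of -0.37 (adjusted p = 0.048). Of 15 adhesion and activation genes, 10 were measured, 7 of them below 0. At an unadjusted p under 0.05, 1 of the 10 was higher and 2 lower, beside 8.5% and 9.71% of all named genes. In 1 gene, Plat, the groups did not overlap, lower, and it was the 1 gene called lower, beside 3.16% and 0.501% of all named genes. Plat, tissue plasminogen activator, which endothelium releases and neural cells also make, fell to 8.15 ± 0.12 in Tlx overexpressing mice (SD, n = 4), against 8.80 ± 0.13 in wild type mice (SD, n = 5). The Plat difference was -0.65 (SE 0.09, adjusted p = 0.0070), with no overlap between the groups, and it was called in 19 of 20 alternative settings, the exception being the choroid plexus covariate (-0.57, adjusted p = 0.47).

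Mural cells wrap the endothelium, and 13 of their 14 listed genes were measured. Acta2, the smooth muscle actin, rose in Tlx overexpressing mice, at 11.63 ± 0.16 (SD, n = 4), against 10.78 ± 0.38 in wild type mice (SD, n = 5), a difference of 0.85 (SE 0.17, adjusted p = 0.035). A second Acta2 probe was also called, and 2 further probes were above 0 with adjusted p-values of 0.051 and 0.080. The call of the brightest probe was lost without 3155, 3157, 3163, 2989 or 3164, with differences of 0.79 to 0.89 and adjusted p-values of 0.054 to 0.15. It was also lost with an offset of 50 (adjusted p = 0.054), no filter on detection (adjusted p = 0.14) and the choroid plexus covariate (0.82, adjusted p = 0.76), so that it held in 12 of 20 alternative settings. The other 12 mural genes were not called, and the list's median was -0.09. Of all named genes, 0.624% were called higher. At an unadjusted p under 0.05, 1 of the 13 mural genes, Acta2, was higher and 0 lower, beside 8.5% and 9.71% of all named genes. Over the mural list 7 of 13 genes were below 0. Fibroblast genes, 6 measured and 5 below 0, had mean centred levels of -0.45 to 0.38 in Tlx overexpressing mice and -0.01 to 0.33 in wild type mice, with 2995 highest and 3155 lowest. Their part in the endothelial differences was not tested.

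**Figure D5:**
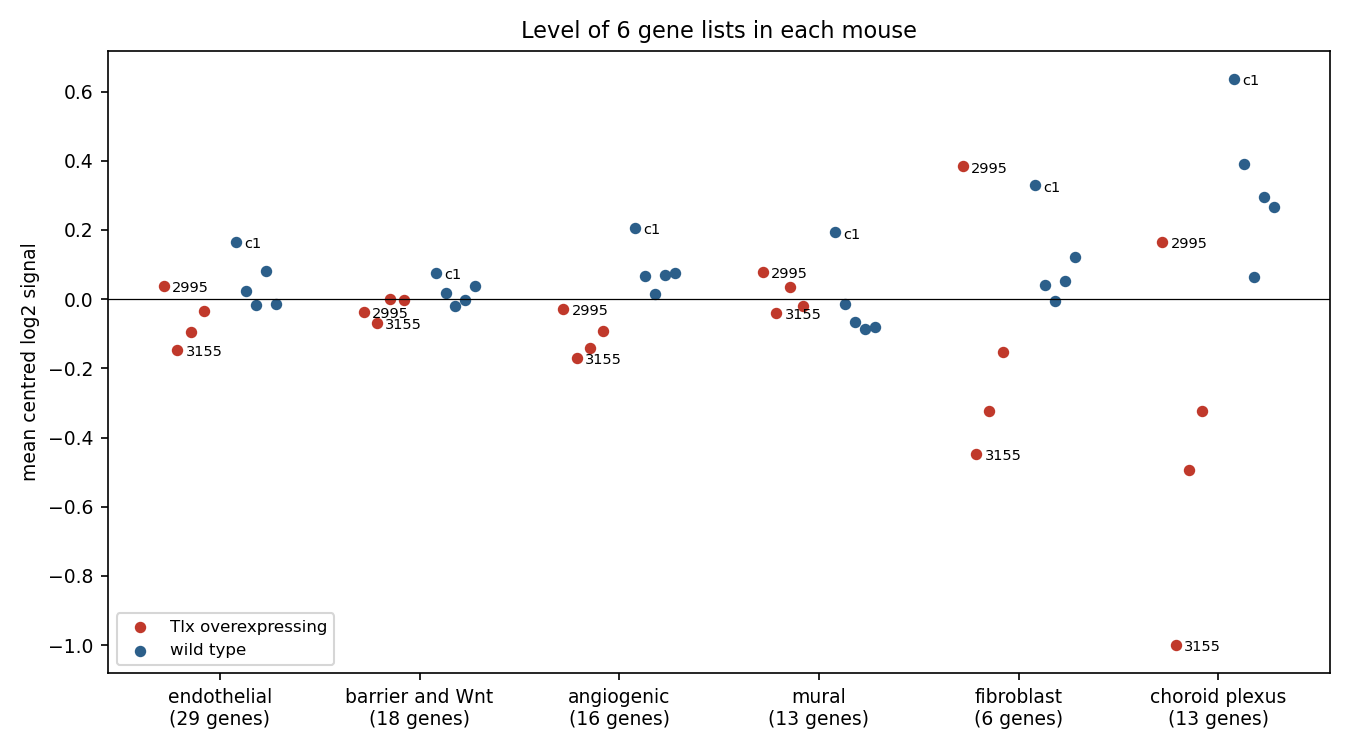
Mean centred log2 signal of 6 gene lists in each mouse, Tlx overexpressing left and wild type right within each list; each value is centred on the gene's mean over 9 mice. Mice 3155 and c1 are lowest and highest in the endothelial, barrier, angiogenic and choroid plexus lists. The spread runs from -0.15 to 0.17 in the endothelial list and from -0.999 to 0.64 in the choroid plexus list.

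Markers of other cells in the captured tissue were also read. Red blood cell genes, which report blood left in vessels, had 4 measured, none called, all above 0 with a median of 0.11, and their mean centred level ranged from -0.11 to 0.29 in Tlx overexpressing mice and from -0.32 to 0.21 in wild type mice. Microglia and macrophage genes had 14 measured, 11 above 0 with a median of 0.18 and none called. At an unadjusted p under 0.05, 7 of the 14 were higher and 0 lower, beside 8.5% and 9.71% of all named genes. In 2 of them the groups did not overlap, higher, beside 3.64% of all named genes. All 7 astrocyte genes were measured, 3 above and 4 below 0 with a median of -0.12 and none called. Of 8 ependymal genes 6 were measured, 5 of them below 0 with a median of -0.21. None of the 6 was called. At an unadjusted p under 0.05, 3 were lower, beside 9.71% of all named genes. In 2 of these, Foxj1 and Rarres2, the groups did not overlap, beside 3.16% of all named genes, lower. The mean centred ependymal level was -0.03, -0.25, -0.03 and -0.03 in Tlx overexpressing mice, against 0.12, 0.20, -0.01, -0.06 and 0.09 in wild type mice. Mouse 3155 was thus the lowest for ependymal as for endothelial and choroid plexus genes, and the ependymal level differed by -0.15 between the genotypes, beside -0.11 for the endothelial list. Neuroblast genes, 6 of 9 measured and all above 0, had 3 called higher, Sox4, Igfbpl1 and Dcx, beside 0.624% of all named genes. Another detected probe of Dcx was at 0.27 (adjusted p = 0.23) and another of Sox4, near background, at 0.08 (adjusted p = 0.74). Further Igfbpl1 probes were at 0.65 (adjusted p = 0.025) and 0.59 (adjusted p = 0.073). By the brightest probe, the calls of Sox4, Igfbpl1 and Dcx held in 11, 12 and 9 of 20 alternative settings. All 3 were lost without 3155, 3157, 3163, c1 or 2996, with no filter on detection and with the choroid plexus covariate. Igfbpl1 and Dcx were lost without 2989 too, and Sox4 and Dcx without 3164 and with the number range as a block; Dcx was also lost with an offset of 50 (adjusted p = 0.051). The part of these cells in the endothelial differences was not tested.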

How the data were processed

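RNA of laser-microdissected SVZ was amplified to biotinylated cRNA and hybridised to Illumina mouse bead arrays, per the labels' protocols. Of the 2 deposited tables of linear intensity, the one called non-normalized held intensities already quantile-normalized between arrays (lower quartiles within 0.00992 of each other, medians within 0.0223 and upper quartiles equal), and the other held the same probe ranks before that step, so that other table was the starting point and the quantile-normalized one an alternative. Each intensity came with a detection p-value, per the file headers. Software and any background treatment before deposit are not given in the sources used here.

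Background was corrected by normexp (offset 16), with the negative controls' distribution taken from the detection p-values; signals were then quantile-normalized and set on the log2 scale (limma 3.58.1, R 4.3.3). Arrays of mouse c1 were averaged. Probes with a detection p-value under 0.05 in at least 4 of 9 mice were kept (for c1, on both arrays), 20401 of 45281. Names came from the platform annotation (34885 probes with 1 symbol, 18 with several, which were left unnamed, and 10378 with none), with symbols updated by gene ID for 34807 probes from RefSeq (GRCm38.p6), whose coordinates were not used for probes. Genotypes were compared with lmFit and eBayes, two-sided, and p-values were adjusted by Benjamini and Hochberg's method across all kept probes; every adjusted p is from such a fit. Exact permutation tests used all 126 splits of 9 mice into 4 and 5, and their p-values were not adjusted for the number of genes. The procedure was tested on simulated data in which probes varied independently, so effects shared by many probes of a mouse were not covered. For a list level, each gene's log2 signal was centred on its mean and the genes were averaged in each mouse.

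The members and lists were chosen with earlier results of these data known. Values in every mouse are given for members past the threshold, the 8 with the smallest p, the 2 brightest and 2 dimmest, and Pecam1, Cdh5, Flt1, Kdr, Slco1a4, Mfsd2a and Plvap; in other lists, called genes could be named, or 3 at most by p where none was called. Alternatives were the other table, an offset of 50, no background correction, other filters, each c1 array alone, each mouse left out, the number range as a block, no c1 and c2, the choroid plexus covariate and array weights.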

Additional observations from a re-analysis of the deposited data

Results flagged for a closer look

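In 1 of 58 groups of mice examined, 1.72% where chance alone flags about 1 in 20, a single mouse stood far from the others. Tlx overexpressing mouse 3155 had an Icam2 signal of 5.81, while the nearest of the other Tlx overexpressing mice was at 6.22 and the highest at 6.28. The gap took up 0.86 of the group's range, above Dixon's 95% critical value for 4 mice. Icam2 is an adhesion protein of endothelium and platelets. The value of 3155 lay within the wild type range of 5.75 to 6.34, and wild type mouse 2989 was lower, at 5.75. Mouse 3155 was the lowest mouse for 11 of the 29 endothelial genes, Icam2 not among them.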

How the results depend on the processing

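Vwf was called in 10 of 20 alternatives and lay between 0.32 and 0.47 in all of them, with adjusted p-values of 0.018 to 0.53. Among all probes, 192 were called, and 122 with an offset of 50, 56 with no filter on detection, 51 with the number range as a block, 100 without c1 and c2, 6 with the choroid plexus covariate and 609 with array weights. Endothelial probes called numbered 0 with no filter, the block, the covariate or without c1 and c2, and 2 with array weights (Slco1c1 and Vwf). Without 1 mouse at a time, 0 to 2 endothelial probes and 26 to 758 of all probes were called. The median difference of endothelial genes was 0.0059 with the block, 0.048 with the covariate and 0.012 within mice 2995, 2989 and 2996. In the other alternative fits it lay between -0.14 and -0.057. No gene called in the report changed its sign.

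Signs of uncalled genes turned as follows. With the covariate: Pecam1 at 0.069, Cdh5 at 0.20, Flt1 at 0.15, Kdr at 0.023, Ly6c1 at -0.023, Emcn at 0.15, Nos3 at 0.19, Ets1 at 0.12, Robo4 at 0.054, Ptprb at 0.19, Ramp2 at 0.048, Adgrl4 at 0.048, Plvap at 0.34, Igf2 at 0.14, Lum at 0.52 and Pifo at 0.020. With the block: Pecam1 at 0.027, Cdh5 at 0.052, Kdr at 0.0059, Nos3 at 0.070, Ets1 at 0.077, Sox17 at 0.0084, Robo4 at 0.092, Ptprb at 0.12 and Adgrl4 at 0.077. Without c1 and c2: Kdr at 0.027, Ly6c1 at -0.028, Nos3 at 0.052, Ets1 at 0.068, Sox17 at 0.024, Robo4 at 0.063 and Adgrl4 at 0.025. With the first c1 array alone: Fli1 at 0.013. With the second alone: Tek at -0.0014 and Ets1 at 0.0089. Ranges crossed 0 when 1 mouse was left out for Tek -0.058 to 0.11, Icam2 -0.072 to 0.13, Ets1 -0.073 to 0.042, Sox17 -0.080 to 0.017, Fli1 -0.10 to 0.030, Nos3 -0.12 to 0.014, Robo4 -0.075 to 0.050 and Ly6c1 -0.056 to 0.15. The cause was not tested.

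No paired analysis was possible because the replicate numbers follow the order of the samples and the labels pair no mice. Genes detected in under 9 mice, such as Kdr, have no value under the filter on all 9. Signals near background limit Kdr, Cd34, Fli1, Sox17, Ptprb and Tie1. Cdh5 (5.23), Sox18 (5.61) and Slco1a4 (5.80) also had mean log2 signals under 6, as had the called genes Esm1 (5.46) and Steap1 (5.66) of other lists.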
